A study of Campylomormyrus compressirostris and Campylomormyrus rhynchophorus and Campylomormyrus compressirostris x Campylomormyrus rhynchophorus with 15 samples.

Results

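A set of 150 gene models was described whose RNA was lower in the electric organ of Campylomormyrus rhynchophorus (rhy) than in that of C. compressirostris (com), and whose level in F1 hybrids of the species (comrhy) lay near that of rhy. The members were chosen on the measured values themselves. A gene model was kept when its mean over the 5 com fish was at least 2 TPM (transcript abundance from RSEM, corrected for transcript length and scaled to a fixed total per library), its mean over the 5 rhy fish at least 0.5 TPM, the com mean at least 2 times the rhy mean, and every com fish above every rhy fish. The place of the hybrids, the difference of the hybrid and com means divided by the difference of the rhy and com means, had to lie from 0.8 to 1.2, so that 0 stands for the com mean and 1 for the rhy mean. Of 34492 gene models, 1118 met the criteria on com and rhy, 199 of these had the hybrids in that window, and 194 remained after leaving out models printed in the study's tables of candidate genes. The 150 with the largest ratio of com to rhy are called members here.

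RNA was sequenced from the electric organs of 15 juvenile fish, 5 of each group, all with a labelled length of 6 cm. The com and rhy fish were purebred, and the hybrids came from com males and rhy females, so the reverse cross is not represented. The fish were bred and raised in captivity; whether fish of a group were siblings is not stated, so the spread between them may understate that between unrelated fish. The labels name no treatment in any group. Reads of all groups were counted on gene models of com, so a lower level in rhy and poorer matching of rhy sequence to a com model cannot be told apart. In the hybrids, poorer matching would bear only on reads of rhy sequence. There the com mean was 2.08 to 92.6 times the hybrid mean of the members. The rule itself keeps the com mean well above the hybrid mean, through its limits on the place and on the ratio of com to rhy. The lower end of this range is thus largely set by the rule, and the range is only a description. The part of matching was not tested.

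Mormyrid fish sense their surroundings and communicate by weak electric organ discharges, which are produced by electrocytes, cells of the tail derived from muscle. The flow of sodium and potassium through channels of the electrocyte membrane shapes the discharge. The study gives a short discharge for juvenile and adult com. For juvenile rhy as sampled it gives a longer one, which lengthens further in adults, and for juvenile hybrids one as short as in com. In some of the juvenile hybrids it reports a slightly longer discharge than in the others. In an F1 hybrid each nuclear autosomal gene is present as an allele from each parent, and a hybrid level at the mean of the parents is described as additive, whereas a level at that of either parent is described as dominant. In bulk tissue, fewer cells of a type and less RNA per cell cannot be told apart.

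Library depth, as the sum of expected counts, ranged from 8346594 to 19259314 reads and was lowest in com. No pair of libraries within a group agreed within sampling noise. This comparison was made on read counts, so abundant genes weigh most in it. The library com104 stood farther from its group than most, with a chi-square per degree of freedom of 82.0 to 141 in its pairs against 24.9 to 99.0 in the other com pairs, and comrhy59 likewise with 73.1 to 111 against 20.4 to 63.6. Without com104, 259 gene models met the rule and 146 of the 150 members were among them, and without comrhy59 187 met it, with 138 of the members. The 3 electrocyte markers SCN4AA, KCNA7A_1 and KCNJ2 were detected in all groups, but moved in opposite directions. SCN4AA, a voltage-gated sodium channel of the electric organ, had a mean of 1433 TPM in com, 471 in rhy and 1347 in comrhy, and the potassium channel KCNA7A_1 had 1497, 53.1 and 410. KCNJ2, an inward rectifier potassium channel, was instead highest in rhy, at 132, 1518 and 289 TPM. Their summed level was 2547 to 4194 TPM in the com fish, 1709 to 2369 TPM in the rhy fish and 1678 to 2271 TPM in comrhy, a sum made up mostly of KCNJ2 in rhy, so it does not measure the share of electrocytes. The 7 markers of other cell types (TYRP1 of pigment cells, CD34 and SCARF1 of endothelial or progenitor cells, LCP1, DOK2 and SIGLEC1 of leukocytes, CLDN11 of myelinating cells) summed to 103 to 138 TPM in the com fish, 971 to 1228 TPM in the rhy fish and 208 to 347 TPM in comrhy. CD34 made up most of that sum in rhy, so the sum does not measure the share of other cells. SCARF1 and LCP1 went the other way, with means of 17.0 and 10.7 TPM in com against 7.93 and 0.11 in rhy. For SCARF1 the ranges overlapped, at 8.12 to 37.2 TPM in com, highest in com104, and 6.91 to 8.88 in rhy. LCP1 was at 0 in 4 of 5 rhy and 3 of 5 hybrid fish. The part of cell types in the levels of the members was not tested.

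Placed among all rhy-low gene models, the members form the upper end of a broad distribution. Of the 1118 models, 153 had the hybrids within 0.2 of the com mean, 190 between 0.2 and 0.4, 268 between 0.4 and 0.6, 244 between 0.6 and 0.8, and 1 beyond 1.2. In another 63 the place was under -0.2, which means that the hybrids exceeded com. Hybrids near the middle were thus more frequent than hybrids at the rhy level, and there was no separate peak at 1. Within the members, 69 had a place of 0.8 to 0.9, 55 of 0.9 to 1, and 26 lay above 1, where the hybrid mean was below the rhy mean.

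**Figure D1:**
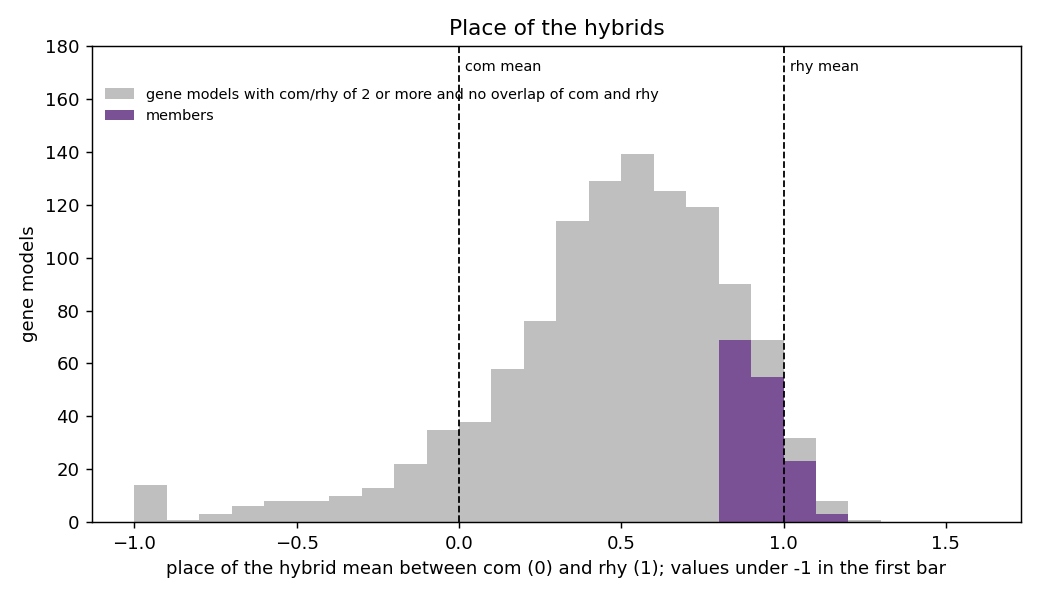
Number of gene models (vertical axis) by the place of the hybrid mean between com (0) and rhy (1), for the 1118 gene models that met the criteria on com and rhy (grey) and for the 150 members (purple, drawn over the grey). The counts are highest around the middle and decline through the window from 0.8 to 1.2 that defined the members.

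The members ranged widely in abundance. Their com means ran from 2.21 to 19087 TPM, with a median of 22.6. The medians in rhy and comrhy were 3.05 and 5.67 TPM. A com mean of 100 TPM or more was seen in 23 members, 10 to 100 TPM in 80, and under 10 TPM in 47, while 29 had a rhy mean under 1 TPM. As a share of all TPM, the 150 members took 2.46 to 3.07% in the com fish, 0.706 to 0.934% in the rhy fish and 0.778 to 1.11% in the hybrids. The com range lay apart from the others and the hybrid range overlapped that of rhy, which follows largely from the rule.

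The ratio of the com to the rhy mean, which the rule used, had a median of 4.78 and ran from 2.64 to 162; it was at least 4 in 95 members and at least 16 in 16. The ratio of com to the hybrids was smaller, with a median of 3.61. The hybrid mean was a median of 1.32 times the rhy mean, so that most members stayed somewhat above rhy in the hybrids, and it was more than 2 times the rhy mean in 21. A place near 1 therefore does not mean equal levels: where com exceeds rhy many times over, a hybrid level several times that of rhy still lies within the window.

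In the edgeR fit over 18489 gene models, 147 members passed the filter on low counts, a filter that the com fish alone could satisfy. Lower levels in rhy than in com were called for 146 of them, where 13.1% of all models tested were called, at a median log2 fold change of -2.39 against -0.02 over all models. Higher levels in com than in the hybrids were called for 143, where the background was 4.42%, at a median of 2.01 against -0.03. Between rhy and the hybrids, 0 members were called higher in rhy (background 4.45%), and 0 by DESeq2. The 1 member higher in rhy at an unadjusted p under 0.05 was maker-ptg000710l-snap-gene-4.92. Its adjusted p in edgeR was 0.0465, and only the fold limit left it out, at a log2 fold change of 0.93. Lower levels in rhy were called for 15 members (background 7.64%), and the median over members was -0.39 against -0.05. The rule used all of these contrasts, so the counts describe the members and nothing is read from them.

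Every com fish lay above every hybrid fish in all but 26 members, a share of 82.7% where 4.09% of the models tested showed this order. The rule set com above rhy and the hybrid mean near the rhy mean, so these ranges describe the members and nothing is read from the shares. The hybrid range overlapped the rhy range in 132 members, lay above it in 17 (11.3%, background 10.2%) and lay below it in 1 (background 10.1%). That member, maker-ptg000710l-snap-gene-4.92, had 60.93, 80, 119, 175 and 161 TPM in com, 17.1, 17.2, 22.2, 27.7 and 33.6 in rhy, and 17.0, 12.2, 7.59, 7.97 and 17.1 in the hybrids. It was picked out after its values were seen, and the highest hybrid and the lowest rhy fish differed by less than 0.05 TPM.

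**Figure D2:**
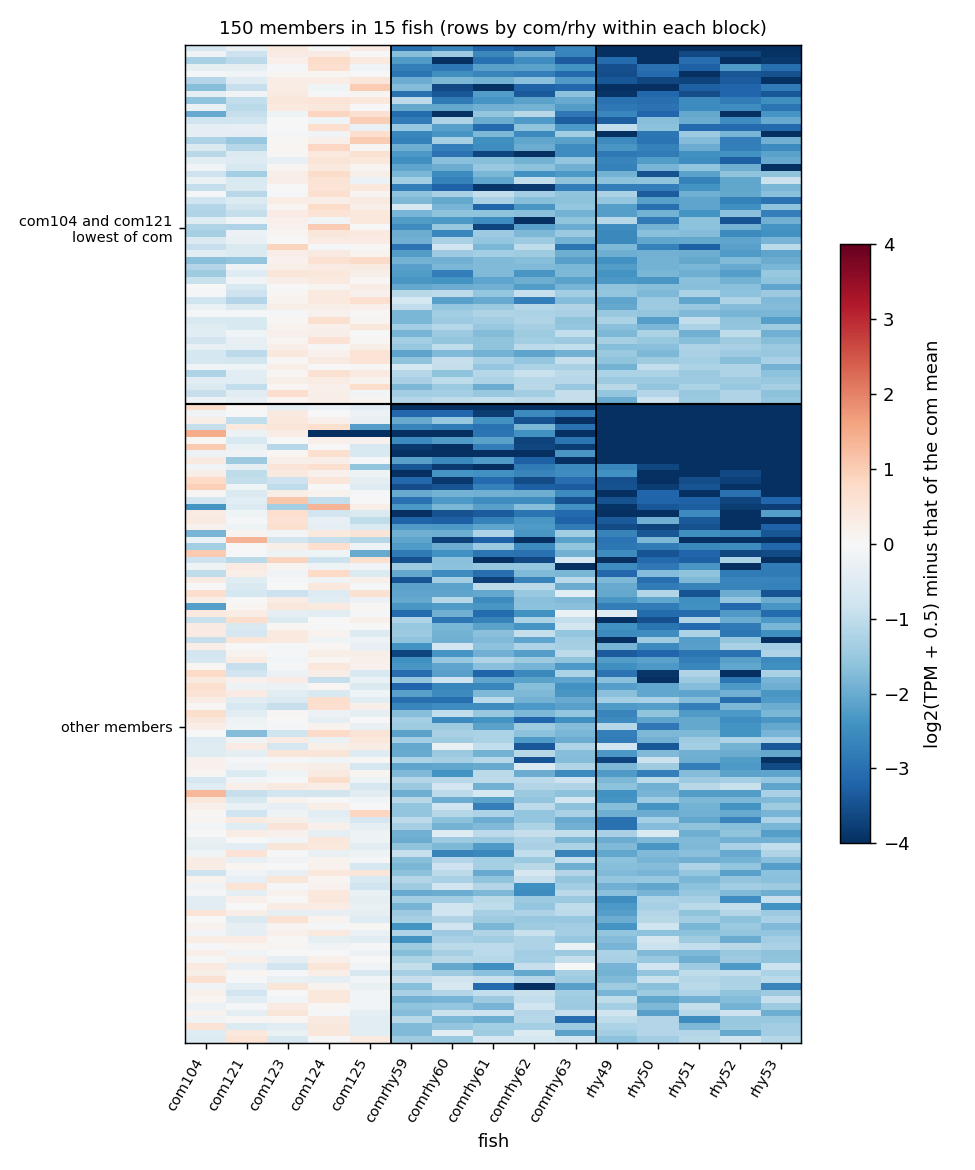
Level of the 150 members (horizontal lines) in each of the 15 fish (columns), as log2(TPM + 0.5) minus the same quantity for the com mean, with colours limited to -4 and 4. The upper block holds the 54 members in which com104 and com121 were the lowest com fish, and within each block members are ordered by the ratio of com to rhy; the hybrid and rhy columns are blue in both blocks.

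The most abundant member by far was maker-ptg002578l-snap-gene-0.4, a model of 513 bases. Its levels were 23104, 17441, 19351, 19161 and 16379 TPM in com104, com121, com123, com124 and com125. The rhy fish had 7909, 5554, 5468, 6724 and 6093 TPM (rhy49 to rhy53), and the hybrids 5846, 7597, 9028, 7263 and 7043 (comrhy59 to comrhy63). All com fish were above all others, while the hybrid and rhy ranges overlapped. The com mean was 3.01 times the rhy mean on TPM and 3.57 times on CPM (counts scaled to a fixed total, not corrected for length) with TMM factors, and the place was 0.92. It alone supplied most of the members' share of TPM in each group.

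The member with the largest ratio was maker-ptg001774l-snap-gene-1.48, at 1086, 694, 513, 575 and 486 TPM in com. It had 2.65, 6.77, 4.91, 2.26 and 4.13 TPM in rhy and 13.1, 3.68, 1.73, 9.91 and 7.81 in the hybrids. The hybrids spread from below the lowest to above the highest rhy fish, and both groups stayed far below com, by 162 times for rhy and 92.6 times for comrhy in the means. Its counts contained fractions of reads in all 15 libraries, meaning that some of its reads were divided with other models, so its level is uncertain.

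The next most abundant members differed in how the hybrids stood relative to rhy. In maker-ptg000800l-snap-gene-5.77 the com fish had 339, 452, 729, 555 and 686 TPM, the rhy fish 18.8, 31.7, 31.4, 32.0 and 22.5, and the hybrids 67.1, 85.9, 59.5, 51.7 and 89.4. Here the 3 groups did not overlap: the hybrids were 2.59 times rhy in the mean although their place was 0.92. In maker-ptg000904l-snap-gene-5.64 the com fish had 421, 519, 486, 718 and 456 TPM, the rhy fish 131, 153, 153, 135 and 136, and the hybrids 132, 191, 187, 223 and 149.5, with hybrid and rhy ranges overlapping at the lower end.

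A wide hybrid spread marked maker-ptg000089l-snap-gene-1.5, with 61.2, 46.2, 102, 47.0 and 154 TPM in the hybrids against 31.7, 54.99, 41.2, 54.0 and 45.4 in rhy. Its com fish had 382, 438, 624, 460.1 and 524 TPM. The hybrids comrhy59, comrhy61 and comrhy63 lay above all rhy fish and the other hybrids within the rhy range. By contrast, maker-ptg000442l-augustus-gene-34.37 was even in both groups, at 103, 87.7, 86.5, 101 and 96.2 TPM in the hybrids and 106, 92.0, 80.4, 99.7 and 81.4 in rhy. Its com fish ran from 160.1 to 397 TPM, so here the spread lay within com.

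Of the further abundant members, all but the last described here had hybrid means close to or below rhy. For maker-ptg001851l-snap-gene-7.131, com had 107, 201, 402, 378 and 336 TPM, with means of 73.5 in rhy and 64.9 in the hybrids (place 1.04). Its lowest com fish, com104, was only slightly above the highest rhy fish at 99.3 TPM. For maker-ptg000620l-snap-gene-9.0, com had 123.95, 215, 278, 306 and 238 TPM, with means of 60.7 in rhy and 50.9 in the hybrids (place 1.06). The same shape with the hybrids level with rhy was seen in maker-ptg000416l-augustus-gene-1.92, where com ran from 201 to 317 TPM, rhy from 70.7 to 132 and the hybrids from 73.6 to 134. The last of the 10 described here, maker-ptg000608l-snap-gene-5.103, had 226, 217, 245, 437 and 413 TPM in com, a rhy mean of 55.2 and a hybrid mean of 86.1. Its hybrid mean was thus 1.56 times the rhy mean (place 0.88), although the hybrid and rhy ranges overlapped.

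**Figure D3:**
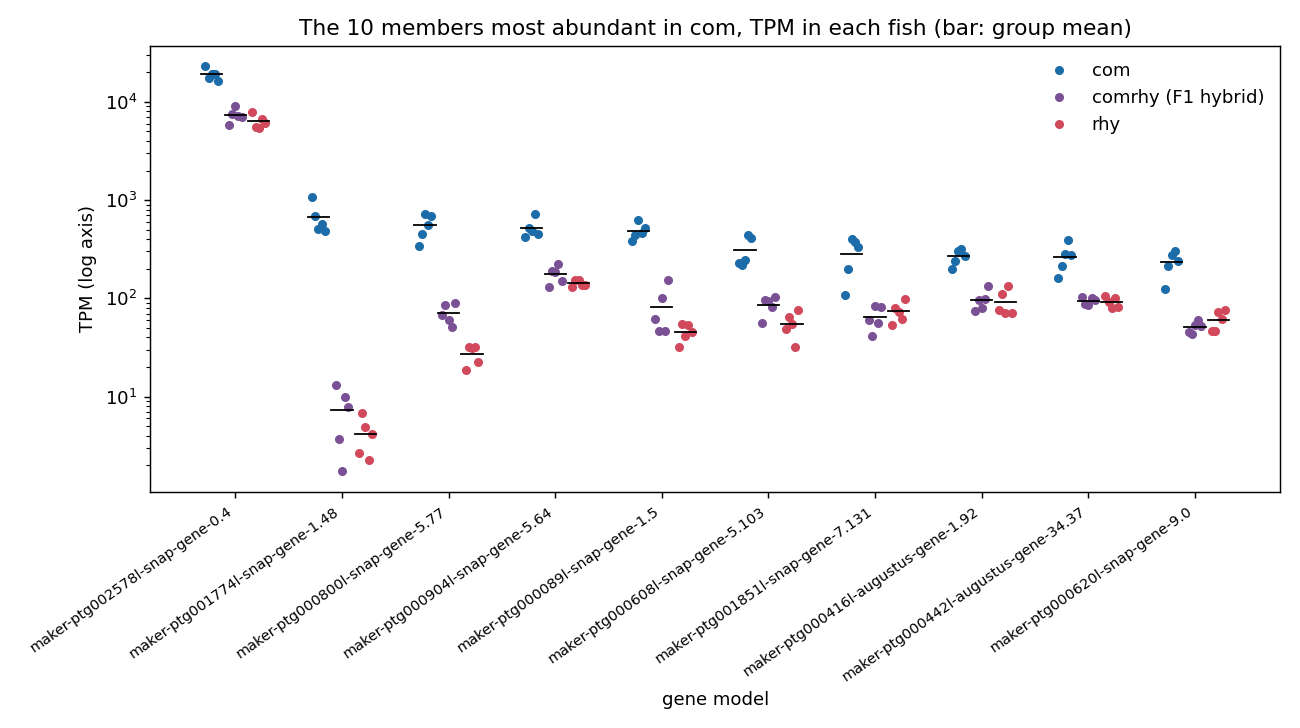
TPM of the 10 members with the highest com mean in each fish (log axis; points are fish, black bars group means). In all 10, every com point lies above every hybrid and rhy point, and only in maker-ptg000800l-snap-gene-5.77 do the hybrid and rhy points not overlap.

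Several members with the largest ratios had few reads in rhy. In maker-ptg000660l-augustus-gene-1.4 the com fish had 57.2, 64.4, 82.7, 64.6 and 54.9 TPM, the rhy fish 0.9, 0, 0.32, 0.58 and 1, and the hybrids 6.93, 6.94, 4.2, 10.7 and 8.64. The com mean was 116 times the rhy mean, which rests on 35 reads over the 5 rhy fish, and the hybrids were 13.3 times above rhy with no overlap. Its place of 0.89 thus stands for a hybrid level 8.66 times below com and well above rhy. The model snap_masked-ptg001228l-processed-gene-5.160 had 61.5, 25.4, 67.7, 58.2 and 41.4 TPM in com and 0.36, 0.92, 0.89, 0 and 0.34 in rhy, and its hybrids ran from 0 to 17.4 TPM, with comrhy63 at 0. The hybrid mean was 17.1 times the rhy mean, the largest such ratio among the members, on 14 reads in rhy.

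A single fish decided the size of several ratios. In maker-ptg000135l-snap-gene-54.29 the com levels were 421, 127, 184, 6.77 and 7.13 TPM, so that com124 and com125 lay among the hybrids, which ran from 4.92 to 27.6. The ratio to rhy fell from 50.9 to 27.7 without com104. In maker-ptg000102l-est_gff_est2genome-gene-12.39 com had 20.3, 51.1, 55.2, 61.03 and 8.13 TPM, rhy 0, 0, 1.88, 0.48 and 1.35, and its ratio of 52.8 became 85.6 without rhy51. In maker-ptg001006l-snap-gene-3.54, with 9 reads in rhy, the ratio of 24.5 became 57.4 without rhy49. All remained lower in rhy than in com under each of these omissions. Without rhy51 and without rhy49, respectively, the latter models fell under the minimum of 0.5 TPM in rhy. Each of them met the rule in 14 of the 15 settings that left out 1 fish.

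The other members with large ratios had hybrids from near rhy to several times above it. The hybrids of maker-ptg001887l-snap-gene-2.86 had a mean of 8.23 TPM against 1.16 in rhy and 52.9 in com, and those of snap_masked-ptg000376l-processed-gene-7.23 21.7 against 5.25 and 146. In maker-ptg002009l-augustus-gene-2.12 the hybrids had 0.19, 0.77, 1.32, 0.45 and 5.8 TPM, the rhy fish a mean of 0.92 and the com fish a mean of 31.2; without comrhy63 the hybrids would all lie within or below the rhy range. The counts of maker-ptg001887l-snap-gene-2.86 and maker-ptg002009l-augustus-gene-2.12 held fractions of reads in 14 and 13 libraries, so their levels are uncertain too.

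The members were more uneven across the com fish than other gene models. The median coefficient of variation over the 5 com fish was 34.6% for members, 28.98% for rhy-low models with hybrids midway (place 0.4 to 0.6), 26.7% for those with hybrids at the com level (-0.2 to 0.2), and 26.0% for all models tested with a mean of at least 0.5 TPM in the group. In the hybrids it was 34.8% for members against 26.2%, 22.9% and 21.2%, and in rhy 32.1% against 36.0%, 30.9% and 21.1%. The rule constrains the com and rhy ranges and members are low in rhy and the hybrids, where counting error is larger, so these figures are a description. In 27 members the highest com fish exceeded 2 times the mean of the other 4.

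This unevenness had a repeated order. In 54 members (36.0%) com104 and com121 were the 2 lowest com fish, in 7 of the 10 most abundant members and in 13 of the 23 with a com mean of 100 TPM or more. The same pair was lowest in 11.3% of the models with hybrids midway, 5.37% of those with hybrids at the com level and 8.45% of 14604 tested models with a com mean of at least 2 TPM. The next most frequent pair among members, com121 with com125, was lowest in 14.7%. In 8 members com104 and com121 were instead the 2 highest com fish, and com104 was the highest com fish in 29. In the comparison of libraries given above, com104 and com121 were the least alike com pair, with a chi-square per degree of freedom of 141. Abundant genes weigh most in that figure, among them the most abundant gene, whose share differed widely between these libraries. The pair was singled out after the values were seen and has no test, and the labels give nothing that sets these fish apart from the other com fish. In the 54 members the lower com fish lie toward the hybrids and rhy but, by the rule, above rhy. The order in the com104 and com121 pair was found in 40.0% of members on CPM with TMM factors, and in 38.3% of the 133 members without shared reads. The depth of com104 and com121 was the highest of the com libraries (11549627 and 11116079 reads), and the most abundant gene, which is no member, took 3.63% of counts in com104 and 19.3% in com121, so these libraries lay at opposite ends of the com range in that share. The part of depth in this order was not tested.

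**Figure D4:**
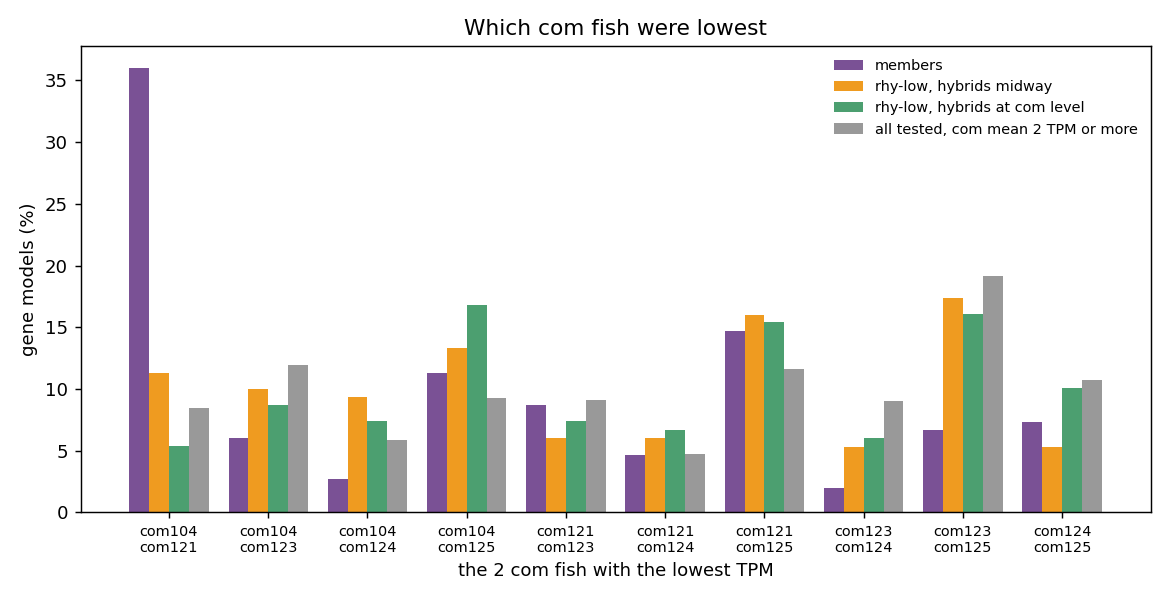
Share of gene models (vertical axis, %) in which each of the 10 possible pairs of com fish (horizontal axis) had the lowest TPM, for the members and 3 comparison sets. For com104 and com121 the members stand at 36.0% against 5.37 to 11.3% in the other sets.

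Of 5 genes that met every other criterion and were left out of the members only because the study's tables print them, 2 had that same order, EGLN3 and TIMELESS. EGLN3, a prolyl hydroxylase that marks hypoxia-inducible factor for degradation, had 587, 976, 1267, 1560 and 1237 TPM in com104, com121, com123, com124 and com125, with the rhy fish at 224 to 281 and the hybrids at 339 to 444 (place 0.81, with the 3 groups not overlapping). TIMELESS, which acts at the replication fork and in circadian timing, had 45.6, 64.3, 85.3, 81.9 and 122 TPM in com, with the rhy fish at 13.4 to 23.7 and the hybrids at 12.5 to 25.2 (place 1.04). In both genes com104 and com121 were the lowest com fish, while all com fish exceeded all others.

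The other 3 printed genes, CPNE7, DNAL1 and SMAD3, did not have com104 and com121 as the lowest com fish. CPNE7, a calcium-dependent membrane-binding protein of the copine family, had 27.0, 20.5, 40.5, 18.3 and 12.0 TPM in com, with the rhy fish at 0.26 to 0.76 and the hybrids at 0.52 to 1.94, with a place of 0.98. The model printed as DNAL1, whose role is left out because the symbol is uncertain, had a mean of 28.4 TPM in com, 1.17 in rhy and 4.48 in the hybrids, but with fractions of reads in 14 libraries. SMAD3, a transcriptional mediator of TGF-beta signalling, had 346, 781, 583, 1082 and 1145 TPM in com, with the rhy fish at 21.6 to 326 and the hybrids at 136 to 342 on a model of only 219 bases, so that its levels rest on 356, 63 and 108 reads over the 5 fish of each group. On CPM its com to rhy ratio was 8.53 in place of 4.25. No marker of a cell type had a place between 0.8 and 1.2, and the nearest was KCNA7A_1 at 0.75. Only SCN4AA, KCNA7A_1, SCARF1 and LCP1 had a higher mean in com than in rhy, so the other markers could not have met the rule. Nothing on cell types is read from this.

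The members lay on 114 contigs of the com assembly, as read from their identifiers, with 1 member on 89 of them. The identifiers give no base positions, and numbers in them name blocks and models within a contig. Contig ptg000051l held the most, 6 of the 205 models that reached both expression minimums (2.93%, against 1.02% over all such models), and it also carries EGLN3. It was picked for holding the most members, so its share is high by choice. Of its 205 models, 23 met the criteria on com and rhy whatever the place of the hybrids. Contigs with fewer members could have higher shares. Among them were ptg000102l with 4 of 133 (3.01%), ptg000084l with 3 of 66 (4.55%) and ptg000904l with 3 of 31 (9.68%). Of the members on ptg000051l, maker-ptg000051l-snap-gene-28.23 had the highest com mean, 32.5 TPM, against 10.9 in rhy and 12.2 in the hybrids. The lowest was that of maker-ptg000051l-snap-gene-50.0, 2.85 against 0.96 and 1.17. The rest had com means of 8.12 to 17.0 TPM. In maker-ptg000051l-snap-gene-123.48 the fish com121 alone had 44.8 TPM and the other com fish 7.46 to 14.0, and its ratio of 12.3 became 7.29 without com121 and 28.3 without rhy50. In maker-ptg000051l-snap-gene-69.0 the ratio of 12.6 became 24.5 without rhy50. The fifth model named by the rule, maker-ptg000051l-snap-gene-71.2, had 8.12, 1.46 and 2.24 TPM in com, rhy and the hybrids.

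Some members shared a contig with few other expressed models. On ptg002296l 2 of 3 expressed models were members, on ptg000412l 2 of 4, on ptg000441l 2 of 11, on ptg000710l 2 of 12 and on ptg000488l 3 of 13. The pair on ptg000412l moved alike in com: maker-ptg000412l-snap-gene-1.12 had 20.8, 25.1, 59.4, 86.3 and 68.7 TPM and maker-ptg000412l-augustus-gene-2.12 had 3.43, 7.86, 13.1, 28.2 and 23.6. In both, com104 was lowest and com124 highest. On ptg000710l com104 was the lowest com fish in both members, with maker-ptg000710l-snap-gene-4.100 at 53.3, 77.8, 119, 152 and 176 TPM in com beside the values of maker-ptg000710l-snap-gene-4.92 given above. Neighbouring models can be parts of a single gene, which the files do not settle. These contigs were picked out after their members were counted, from those with 2 or more members, so their shares are high by choice and say nothing of small contigs in general.

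KCNA7A_1, a voltage-gated potassium channel of the Kv1 family that is highly expressed in the mormyrid electric organ, is no member, since its hybrids had a place of 0.75. It had 1497 ± 208 TPM in com, 53.1 ± 13.4 in rhy and 410 ± 56.6 in the hybrids (SD, n = 5). Of the members, 3 share its contig and identifier block: maker-ptg000028l-snap-gene-81.11, maker-ptg000028l-snap-gene-81.12 and maker-ptg000028l-snap-gene-81.16, of which the latter pair were named after their values were seen. The model snap-gene-81.11 had 107, 43.1, 23.4, 52.8 and 33.1 TPM in com, with the rhy fish at 0.76 to 1.99 and the hybrids at 1.34 to 7.26. The model snap-gene-81.12 had 62.8, 28.6, 15.9, 32.3 and 22.3 TPM in com, with the rhy fish at 1.39 to 2.48 and the hybrids at 2.3 to 4.55. In both, the order of the com fish was the same, with com104 highest and com123 lowest. The third, snap-gene-81.16, had 152, 98.1, 175, 162 and 143 TPM in com, with the rhy fish at 2.42 to 18.1 and the hybrids at 24.8 to 39.4, so its groups did not overlap although its place was 0.81. Reads of KCNA7A_1 and snap-gene-81.11 were divided between models in 15 and 14 libraries, so the levels of these are uncertain.

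**Figure D5:**
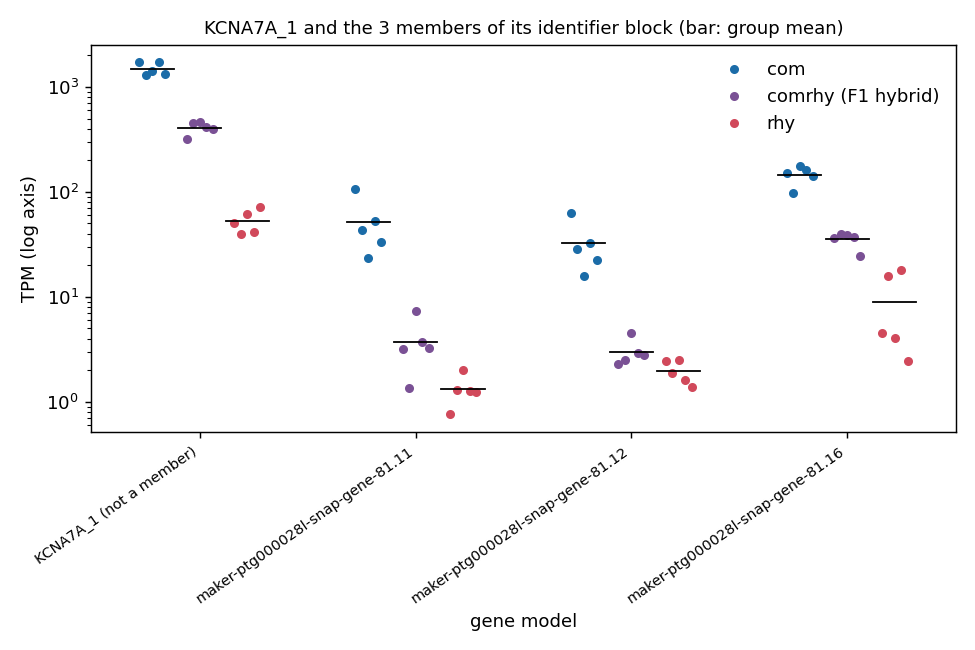
TPM of KCNA7A_1 and of the 3 members in its identifier block in each fish (log axis; points are fish, black bars group means). All 4 models are highest in com, and the hybrid points of KCNA7A_1 and of snap-gene-81.16 lie between com and rhy.

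Other properties of the gene models that the rule did not use were compared with those of other rhy-low models. The median length of members was 2154 bases, against 2445 for those with hybrids midway, 2077 for those with hybrids at the com level and 2186 over all models tested. Models under 1000 bases made up 21.3% of members against 17.3%, 20.1% and 14.0%. Models predicted directly from transcript evidence were 6.0% of members (9 models) against 1.33%, 1.34% and 2.64%, and models with fractions of reads in at least 8 libraries 11.3% (17 models) against 7.33%, 5.37% and 6.10%. These shares were not tested, and with 150 members each percent stands for few models.

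The values just inside and just outside the limits lay close together at the lower end of the window and at the end of the ratio list, but not at the upper end of the window. The member nearest to the lower end of the window was maker-ptg000405l-augustus-gene-40.15 at a place of 0.8004, with means of 208, 16.8 and 54.96 TPM in com, rhy and the hybrids, and the model next outside was maker-ptg000195l-snap-gene-9.92 at 0.798. At the upper end the last member was maker-ptg000146l-snap-gene-1.118 at 1.148, with 90.7, 31.9 and 23.2 TPM. The model nearest outside the window was maker-ptg001288l-snap-gene-4.21 at 1.29. The member with the smallest ratio, snap_masked-ptg000253l-processed-gene-23.5, had 2.64 and the next model, maker-ptg001248l-snap-gene-5.9, 2.63. The latter had a place of 1.18, above that of every member but inside the window, and was left out by its ratio alone. Membership at the lower end and at the end of the list thus turned on small differences.

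For 3 members the counts did not reach the filter of the fit. They were maker-ptg000488l-augustus-gene-1.15, maker-ptg000360l-snap-gene-7.46 and maker-ptg000135l-est_gff_est2genome-gene-34.6, with 9, 4 and 10 reads over the 5 rhy fish. Among the 147 fitted members the only one not called lower in rhy was maker-ptg000130l-augustus-gene-11.35, with com at 2.75 to 6.04 TPM and rhy at 0 to 2.47.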

How the data were processed

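RNA-seq libraries (poly(A) selected, strand-specific) came from 15 juvenile electric organs. Per the study's methods the authors trimmed reads with Trimmomatic 0.39 and quantified them with RSEM on com gene models; the aligner used with RSEM is not given in the sources used here. The authors deposited, per fish and for 34492 gene models, expected counts (which may be fractional where reads match several models), TPM values, FPKM (not used) and transcript lengths.

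The rule was applied to deposited TPM. Expected counts were rounded and fitted with edgeR 4.0.16 (TMM, quasi-likelihood, 1 fit of all 15 libraries, a count above 10 in at least 2 libraries, Benjamini-Hochberg adjusted p under 0.05 and log2 fold change beyond 1). The study used DESeq2, run here (1.42.0) as an alternative. The code was tested on simulated data. TMM scaling moved the median log2 ratio of com to rhy over all models by 0.15 relative to TPM, and that of com to comrhy by 0.19.

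Named models were the 10 members highest in com, the 10 with the largest ratio, up to 5 on the contig with most members, those at the limits, printed genes meeting every other criterion, and markers; exceptions are stated. Members and lists were chosen with earlier results of these data known. Of the printed identifiers, 3 could not be matched and so could not be left out. No annotation was used, so members carry no gene names and no sequences are shown. Alternatives changed the scale, the limits, the tool, the filter and the fish used. Depth was as given above; counting error is largest for members with few reads in rhy.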

Additional observations from a re-analysis of the deposited data

Results flagged for a closer look

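Among 105 groups of 5 fish in 35 named gene models, 6 held a fish whose gap to the nearest other fish exceeded 0.71 of the group's range (Dixon's criterion). For 5 independent values from a normal distribution, chance gives about 1 such group in 20. TPM values need not be normal and most of these models were picked on them, so that rate is only a rough guide. In the hybrids, maker-ptg000102l-est_gff_est2genome-gene-12.39 had 10.7 TPM in comrhy62 against 4.49 to 5.91 in the others, maker-ptg002009l-augustus-gene-2.12 had 5.8 in comrhy63 against 0.19 to 1.32, and EGLN3 had 339 in comrhy59 against 418 to 444. On contig ptg000051l, snap-gene-69.0 had 2.97 TPM in rhy50 against 0.25 to 0.78, snap-gene-123.48 had 44.8 in com121 against 7.46 to 14.0, and snap-gene-50.0 had 4.64 in com104 against 2.13 to 2.65. No fish accounted for more than 1 of these values.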

How the results depend on the processing

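The number of gene models meeting the rule depended on its limits and on the scale. It was 194 as applied, 108 with the place on log2(TPM + 0.5) (82 of the members kept) and 312 with a window of 0.7 to 1.3. A window of 0.9 to 1.1 gave 98 (78 kept) and a ratio of at least 4 gave 95. Other scales and limits gave 173 to 291 models. Leaving out each fish gave 187 to 259 such models, and 110 of the 150 members met the rule without any 1 fish. Leaving out each fish gave 144 to 147 members called lower in rhy than in com, 138 to 144 called higher in com than in comrhy and 13 to 17 called lower in rhy than in comrhy. The other tools, filters and scalings gave 144 to 148, 141 to 144 and 15 to 22, with 148 of 150 fitted members when no filter was used and 22 when no fold limit was set. No value reversed its direction under the alternatives run. The alternatives on the com104 and com121 order were added after the data were seen. No paired analysis was possible because the fish numbers of the groups are not shared. Precision is limited by the reads in rhy, 4 to 51710 per member over 5 fish with a median of 180.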
